A study of Drosophila melanogaster with 23 samples.

Results

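Caudal (Cad) sites were the stretches of 50 bp or more that an interval covered in all 3 deposited Cad peak lists, and 31872 of them lay on chromosome arms 2L, 2R, 3L, 3R, 4 and X. The same rule gave 165854 stretches over the 6 transcription factors mapped in the series, of which 31776 were Bicoid (Bcd), 15685 Dorsal (Dl), 35570 Twist (Twi), 30713 Zelda (Zld) and 20238 GAGA factor (GAF). Each factor was mapped in 3 libraries by ChIP-nexus, which adds an exonuclease digest to chromatin immunoprecipitation and so maps the borders of the bound protein. The histone marks H3K27ac and H3K4me1, which accompany active regulatory DNA and enhancers, were mapped by ChIP-seq in 2 libraries each. Every group came from whole wild-type Oregon-R Drosophila melanogaster embryos, collected over 1 h, aged for 2 h at 25 °C and therefore 2 to 3 h old. The Cad antibody was raised against amino acids 1 to 214 of the protein. Whole embryos pool the posterior cells rich in Caudal with anterior cells that hold little, so binding in few cells and weak binding in many cannot be told apart in these lists.

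Caudal is a homeodomain protein of the Cdx family. Its maternal mRNA is spread through the egg, and Bicoid blocks its translation in the front of the embryo, so that Caudal protein forms a gradient highest at the posterior pole. There it activates posterior gap and pair-rule genes, and it acts with the genes of the hindgut primordium in forming the hindgut. Zelda and GAGA factor are known as pioneer factors that make chromatin accessible, and Dorsal and Twist for patterning the dorsoventral axis.

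The 3 Cad lists held 47547, 55056 and 50454 intervals, and the 15 lists of the other factors between 30281 and 60625. Intervals of any 2 Cad lists shared between 57.5% and 60.2% of the bases that either covered. For Dl this share was 28.5% to 28.9%, and Dl replicate 2 had the fewest intervals of the 3 Dl lists, 45685. The H3K27ac lists shared 76.8% of their bases, but the H3K4me1 lists, with 13403 and 6546 intervals, shared 18.3%, so each H3K4me1 share below is given for stretches covered in both libraries and again for replicate 1 alone. Read depth is not recorded in peak lists, and the authors' fold, p and q were used here only to rank peaks within a list. Nothing in the labels says whether replicates came from separate collections, so p-values measure the spread between these libraries, which may be technical.

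The Cad sites had a median width of 238 bp, and the summits called in the 3 Cad libraries lay a median of 41 bp apart at a site. Each site was placed by its mean rank, the mean over the 3 Cad lists of the position of its strongest interval when a list is ordered by −log10 p. At the 982 sites with a mean rank of 1000 or better, called strong sites here, the median width was 600 bp and the summits lay 12 bp apart. At the 17023 sites beyond rank 15000 the median width was 181 bp and the spread 57 bp. Strong sites were spread over the arms, with 264 on 3R, 205 on 2L, 184 on 3L, 168 on X, 155 on 2R and 6 on the small chromosome 4.

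To set Cad beside the other factors at named genes, every one of 13922 protein-coding genes was ranked within each library by its strongest interval with a summit within 10 kb of the gene (rank 1 is the strongest, genes that share an interval share a rank, and a gene rank is thus a different number from a site rank). By limma on log2 gene rank, Cad minus the mean of the other 5 factors, 3980 genes (28.6%) ranked better in Cad and 6072 genes (43.6%) ranked worse at a Benjamini-Hochberg adjusted p under 0.05. In 1345 genes (9.66%) Cad ranked better than each of the other 5 factors. All 3 Cad libraries ranked ahead of all 15 others at 1376 genes (9.88%) and behind all 15 at 768 genes (5.52%). Against Bcd alone, 30.6% of genes ranked better in Cad and 30.4% worse. A negative log2 difference below means a better rank in Cad. Of 35 genes on 4 lists of posterior patterning loci, 24 ranked better in Cad, 7 worse and 4 were not called, with a median log2 difference of -1.12 against 0.16 over all genes. Fewer ranked better when peaks were ranked by fold. Better and worse were then 4 and 3 of 9 gap and terminal genes and 6 and 1 of 10 pair-rule genes. They were 3 and 3 of 12 hindgut genes and 4 and 0 of 4 Hox genes. Of the same 35 genes, 10 ranked better than in each other factor, and 18 had a mean Cad gene rank of 500 or better, a rank held by 496 genes in all (3.56%). The lists were chosen with earlier results of these data known. Their counts beside those of all genes are therefore a description and not separate support.

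**Figure D1:**
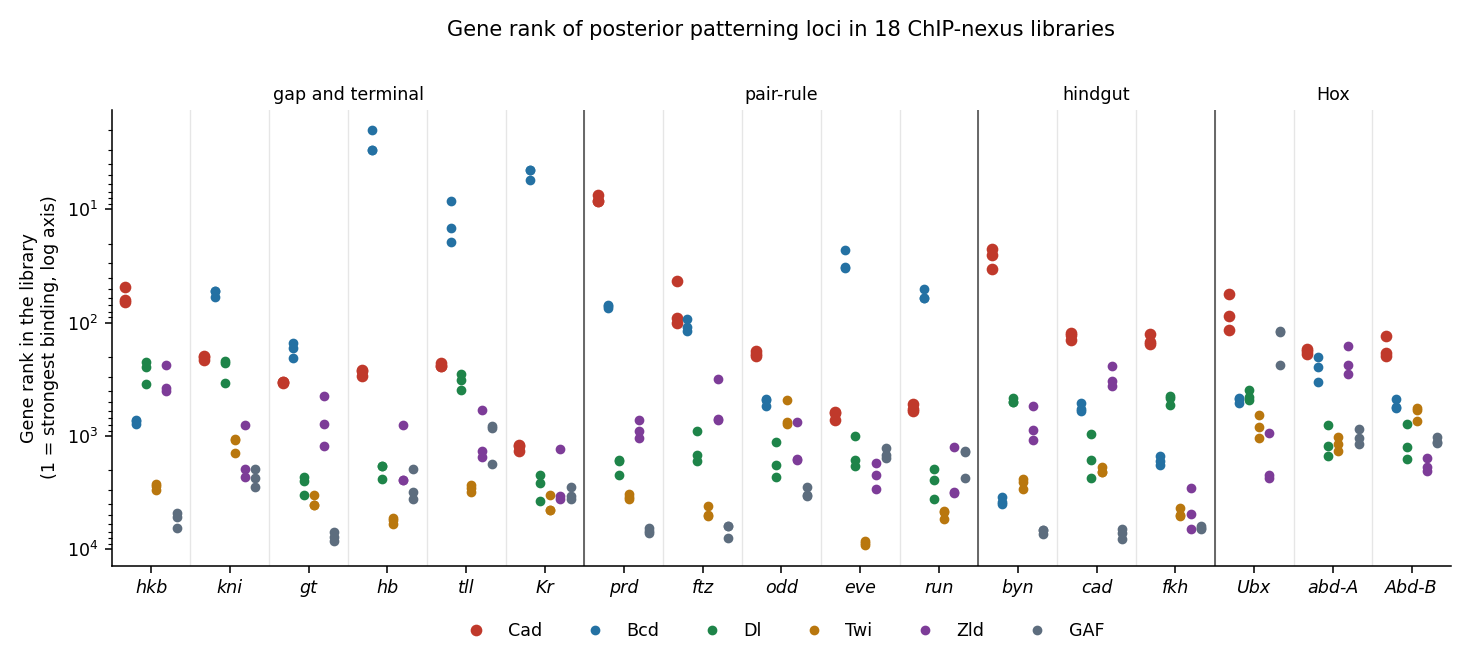
Gene rank (log axis, 1 at the top) of 17 posterior patterning loci in the 18 ChIP-nexus libraries, 1 point per library, coloured by factor. The loci are a selection from the posterior lists and do not show the balance of calls in them. Left out are knrl, otp, en, hh, bowl and drm, called worse in Cad, and pdm2, slp1, slp2 and srp, not called. Genes better in Cad were also left out, among them nub and opa. Cad points lie above those of every other library at hkb, prd, odd, byn, cad, fkh, Ubx and Abd-B, while Bcd points lie above Cad at kni, gt, hb, tll, Kr, eve and run.

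The loci that mark Caudal as labelled are kni, eve and ftz, and the Cad lists held strong sites at all of them. At kni, which encodes the gap repressor Knirps of the abdomen, the gene ranks in the 3 Cad libraries were 212, 203 and 198. They were 53, 59 and 53 in Bcd and 228, 339 and 219 in Dl, and between 800 and 2803 in the 9 libraries of Twi, Zld and GAF. Cad thus stood second to Bcd at kni, just ahead of Dl with no overlap of the 2 groups. The log2 difference from the mean of the other factors was -1.48 ± 0.24 (SE, limma adjusted p = 2.06e-05), and it was -0.42 with an adjusted p of 0.108 when peaks were ranked by fold. Against Bcd the difference was 1.89 ± 0.32 in favour of Bcd (adjusted p = 2.47e-05), and against Dl it was -0.33 ± 0.32, which did not pass the test (adjusted p = 0.377).

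Of 3 Cad sites within 10 kb of kni, 2 were strong. The stronger lay at 3L:20696517-20697981 (dm6), 2128 bp from the gene, and took site ranks 100, 100 and 101 in the 3 Cad lists. The other lay at 3L:20694492-20695203 and overlapped the gene, with site ranks 462, 538 and 382. Both were also covered in all libraries of Bcd, Dl, Twi and Zld, and both carried H3K27ac and H3K4me1. A site is said to carry a mark that overlapped it by at least 1 bp, also where the mark missed the summit. Neither was covered in all GAF libraries.

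At eve, which encodes the pair-rule repressor Even-skipped and lies on 2R, the Cad gene ranks were 729.5, 610 and 622.5, and those of Bcd were 23, 32 and 33. The mean ranks of the remaining factors were 1440 in GAF, 1483 in Dl, 2286 in Zld and 8863 in Twi. The direction of the eve difference depended on the settings: it was -0.67 ± 0.19 (adjusted p = 0.00465) as defined above and 0.61, in favour of the other factors, both with a 20 kb window and with ranking by fold (adjusted p = 0.00866 and 0.00921). The locus held 8 Cad sites, of which 4 were strong, and all 8 carried H3K27ac. H3K4me1 was present at 3 of the 8 in both libraries and at 6 in replicate 1 alone.

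At ftz, the pair-rule gene fushi tarazu, the Cad gene ranks were 42.5, 90.5 and 101.5. Those of Bcd were 92, 110 and 118, which overlapped Cad, and the other 12 libraries lay well behind, with mean ranks of 584 in Zld, 1347 in Dl, 4783 in Twi and 6803 in GAF. The log2 difference was -4.03 ± 0.26 (adjusted p = 5.23e-11), and that from Bcd alone was -0.54 ± 0.34 (adjusted p = 0.185). Of 7 Cad sites near ftz, 4 were strong, at 3R:6857165-6858246, 3R:6858990-6859403, 3R:6863665-6864313 and 3R:6867998-6868688. Their mean site ranks were 36.0, 677, 55.0 and 204, and all 4 overlapped H3K27ac. At the best of them H3K27ac did not cover the summit, with stretches at -834 to -262 and 273 to 565 bp from it. By the same scale, the site at 1362 to 1776 bp met only the edge of a stretch at 1770 to 2014 bp. The site at 6037 to 6686 bp met only the edge of a stretch at 4745 to 6124 bp.

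**Figure D2:**
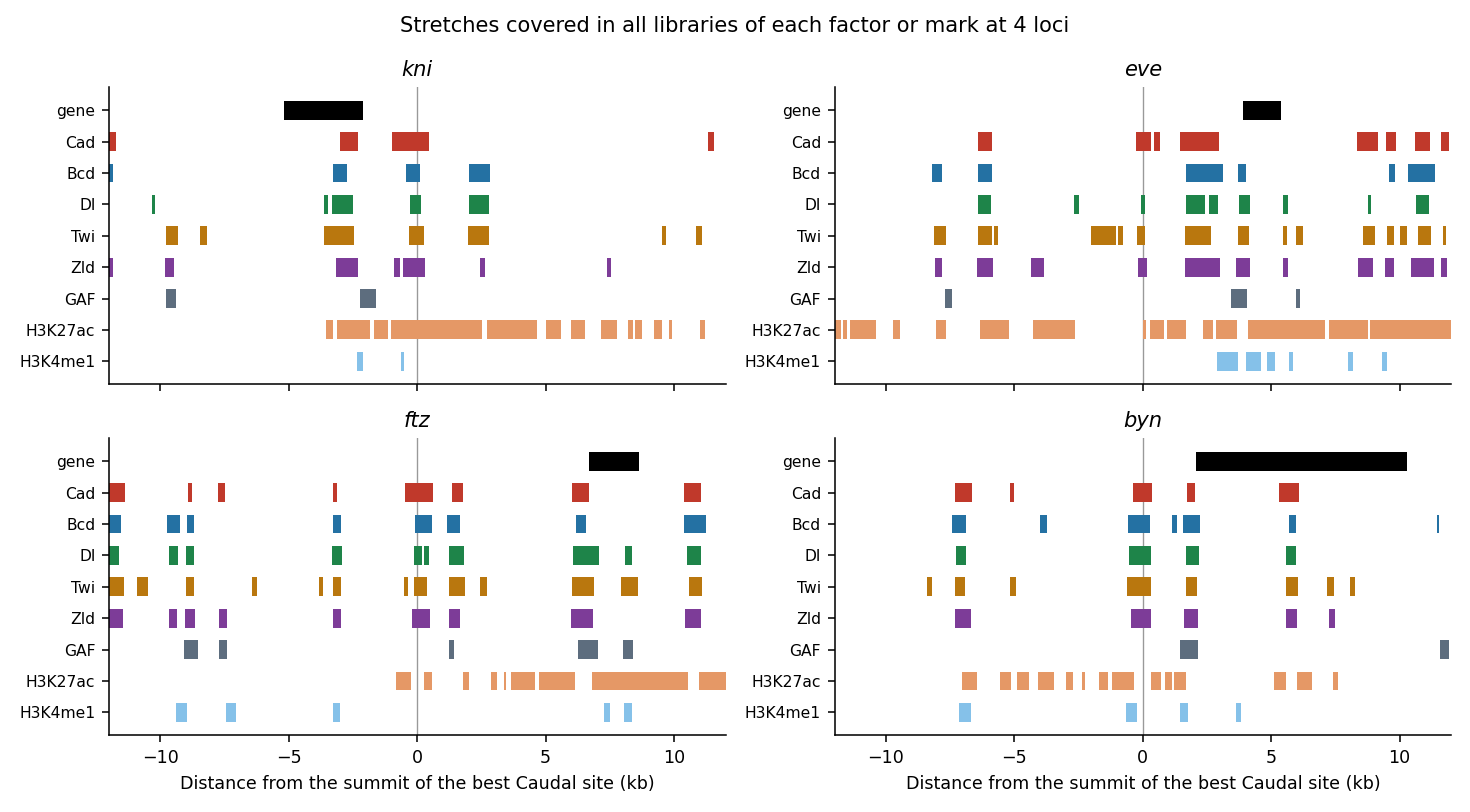
Stretches covered in all 3 libraries of each factor and in both libraries of each mark around kni, eve, ftz and byn, by distance in kb from the summit of the best Cad site, with the gene in black. Cad stretches line up with those of Zld, Twi, Dl and Bcd at most positions, H3K27ac covers broad parts of the kni and eve panels, and H3K4me1 is confined to short stretches.

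Among 9 gap and terminal genes, 6 ranked better in Cad than in the mean of the other factors and 2 worse, with a median log2 difference of -1.29. Bcd ranked 6 of the 9 better than Cad did. hkb, which encodes the terminal gap factor Huckebein active at both poles, had Cad gene ranks of 65.5, 48.5 and 62.5, ahead of all 15 other libraries. Bcd placed hkb at 717.5, 742.5 and 789.5, and the difference from Bcd was -3.68 ± 0.25 (adjusted p = 5.79e-11). The best hkb site, 3R:4348123-4348900, took site ranks 27, 21 and 26 and carried H3K27ac, with H3K4me1 in replicate 1 alone. nub, a POU-domain gene with an early gap-like pattern, was the other gap gene ahead of all 15 libraries, at 634.5, 772.5 and 670.5 in Cad (log2 difference -2.54 ± 0.18, adjusted p = 2.58e-10).

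At most other gap and terminal genes Bcd ranked ahead of Cad. hb, which encodes Hunchback and has an early anterior domain, had Cad gene ranks of 262, 298 and 270 and Bcd gene ranks of 2, 3 and 3, a difference of 6.72 ± 0.35 in favour of Bcd (adjusted p = 8.99e-13). Kr, the central gap gene Krüppel, had Cad ranks of 1207.5, 1347.5 and 1232.5 against 4.5, 4.5 and 5.5 in Bcd. Against the mean of all 5 factors, Kr was just called worse in Cad (0.57 ± 0.24, adjusted p = 0.0403), but the call was lost on leaving out Cad replicate 1, 2 or 3, Bcd replicate 2, Dl replicate 2 or 3, GAF replicate 2 or Twi replicate 2 (0.52 to 0.60), and the sign turned on a normal-score scale (-0.06). tll, the terminal gene tailless, had Cad ranks of 240.5, 242.5 and 226.5 and Bcd ranks of 19.5, 14.5 and 8.5. gt, the gap gene giant with an anterior and a posterior domain, had Cad ranks of 340.5, 337.5 and 334.5 and Bcd ranks of 203.5, 166.5 and 151.5. tll (-0.86 ± 0.28, adjusted p = 0.00994) and gt (-2.24 ± 0.21, adjusted p = 1.41e-08) both ranked better in Cad than in the mean of the 5 factors, tll with an adjusted p of 0.0711 when peaks were ranked by fold. knrl, the neighbour and relative of kni, ranked worse in Cad (1.36 ± 0.21, adjusted p = 1.10e-05), and pdm2, the neighbour of nub, was not called (0.14 ± 0.20, adjusted p = 0.524), but with ranking by fold it was called worse in Cad (0.68, adjusted p = 0.00415).

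Of 10 pair-rule genes, which divide the embryo into stripes, 8 ranked better in Cad, none worse, and the median log2 difference was -2.53. Cad stood first or second among the 6 factors at all 10, and ahead of each other factor at prd, odd and opa, by the test of each pair. Over all genes tested, Cad stood first or second at 32.4%. prd, which encodes the Pax protein Paired, had the best Cad gene ranks of any listed gene, 8.5, 7.5 and 8.5. Bcd placed prd at 71.0, 73.5 and 70.5, and the best rank in the other 12 libraries was 723.5. The log2 difference was -7.23 ± 0.17 (adjusted p = 2.55e-17). The best prd site, 2L:12080979-12081708, was 1652 bp from the gene and ranked 5, 3 and 5 in the Cad lists. The locus held 4 strong sites among 8, none of the 8 with H3K27ac and 3 with H3K4me1 (4 in replicate 1 alone). One strong prd site, 2L:12088146-12088384, was covered in no library of another factor.

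odd, which encodes the zinc-finger repressor Odd skipped, had Cad gene ranks of 195.5, 177.5 and 187.5 and a log2 difference of -2.65 ± 0.23 (adjusted p = 4.33e-09). opa, the zinc-finger factor Odd paired, which sets the timing of pair-rule expression, had ranks of 144, 163 and 155 and a difference of -3.51 ± 0.19 (adjusted p = 1.99e-12). All 11 opa sites but 1 carried H3K4me1 in replicate 1 alone, and 6 in both libraries. D, the Sox gene Dichaete, had Cad ranks of 41, 81 and 91 behind Bcd at 14, 16 and 17. h, which encodes the repressor Hairy, had Cad ranks of 252, 209 and 214 and a difference of -2.41 ± 0.23 (adjusted p = 1.54e-08), but 0.28 and not called (adjusted p = 0.291) with ranking by fold. run, the founder of the Runx family, had Cad ranks of 579, 598 and 521 and Bcd ranks of 60, 50 and 61. The neighbouring genes slp1 and slp2, which share their best Bcd interval, were not called (-0.30 ± 0.19 and 0.10 ± 0.26). The sign of slp2 turned in 5 of the other settings, and slp1 was called better in Cad with a 5 kb window (-0.46, adjusted p = 0.0341) and on the normal-score scale (-0.22 in its units, adjusted p = 0.0196).

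Of 12 genes listed for the hindgut and its patterning, 6 (50.0%) ranked better in Cad and 5 (41.7%) worse, against 28.6% and 43.6% of all genes. The list as a whole was thus split, with a median of -0.38. The hindgut median was 0.11 with a 20 kb window and 0.07 with ranking by fold, where 3 genes ranked better and 3 worse. byn, which encodes the T-box factor Brachyenteron required for the hindgut, had Cad gene ranks of 22.5, 33.5 and 25.5. The ranks of byn were 3972.5, 3848.5 and 3468.5 in Bcd, and the best rank in any of the 15 other libraries was 463.5, in Dl. The log2 difference was -6.17 ± 0.18 (adjusted p = 4.16e-16), and that from Bcd alone was -7.13 ± 0.24 (adjusted p = 1.78e-15). The best byn site, 3L:11925228-11925986, took site ranks 9, 12 and 11, lay 2068 bp from byn inside the neighbouring gene CG44837, which shares the rank, and overlapped H3K27ac and H3K4me1. H3K27ac met only the ends of this site, with stretches at -1212 to -346 and 318 to 716 bp from its summit. A further strong site lay inside byn at 3L:11930914-11931721, with site ranks 526, 366 and 405, H3K27ac, and H3K4me1 in replicate 1 alone.

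fkh, which encodes the FoxA factor Fork head of the gut primordia, had Cad gene ranks of 125, 153 and 149 against 1493, 1795 and 1658 in Bcd, and the log2 difference was -4.18 ± 0.18 (adjusted p = 9.93e-14). Its strong sites lay at 3R:28586095-28586669, with both marks, and at 3R:28588422-28588927, with neither. cad itself had Cad gene ranks of 123.5, 129.5 and 142.5, ahead of all 15 other libraries, and the log2 difference was -3.32 ± 0.20 (adjusted p = 1.85e-11). The cad locus held 11 Cad sites, 4 of them strong, 8 with H3K27ac and 5 with H3K4me1 (9 in replicate 1 alone). The best cad site, 2L:20768423-20769301, took site ranks 58, 60 and 66. byn, fkh and cad were the hindgut genes at which Cad was ahead of each other factor.

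wg, the Wnt ligand Wingless, ranked better in Cad than in the mean of the others (-0.92 ± 0.15, adjusted p = 1.82e-05), but with ranking by fold the difference was 0.09 and not called. fog, the secreted ligand of posterior midgut invagination, was at 1911.5, 2146.5 and 2374.5 (-0.61 ± 0.18, adjusted p = 0.00426), and with ranking by fold its difference was -0.03 and not called. lin, a hindgut regulator, was called at -0.43 ± 0.16 (adjusted p = 0.0183), was not called without Cad replicate 1 (-0.35, adjusted p = 0.106) or without Cad replicate 3 (-0.44, adjusted p = 0.0521), and had a positive difference of 0.04 with ranking by fold. otp, a homeobox gene of the hindgut, had Cad gene ranks of 4678.5, 8212 and 7629.5 and the largest difference against Cad on the list (1.92 ± 0.45, adjusted p = 8.03e-04). en, the segment polarity homeobox gene engrailed, ranked worse in all 3 Cad libraries (5741, 4917 and 4630) than in all 15 others. hh, the ligand Hedgehog, bowl and drm, zinc-finger genes of the hindgut, ranked worse by 1.14 ± 0.19, 0.65 ± 0.18 and 0.68 ± 0.21, the last pair of genes without a call when peaks were ranked by fold. srp, the GATA factor Serpent, was not called (-0.34 ± 0.21, adjusted p = 0.144), although 2 of its 10 Cad sites were strong. It was called better in Cad without Zld replicate 3 (-0.39, adjusted p = 0.0378) and on the normal-score scale (-0.21 in its units, adjusted p = 0.0212), and the sign turned with a 20 kb window (0.46, adjusted p = 0.0540).

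All 4 Hox genes of the trunk and abdomen ranked better in Cad, and Cad had the best mean rank of the 6 factors at each. Over all genes tested, Cad had the best mean rank at 15.5%. Ubx, which sets the identity of the posterior thorax and first abdominal segment, had Cad gene ranks of 56, 88 and 115, ahead of all 15 other libraries, of which the nearest was GAF with a mean of 158. The difference at Ubx was -2.70 ± 0.27 (adjusted p = 3.36e-08). Abd-B, which sets the identity of the posterior abdomen, had ranks of 131, 185 and 197 and a difference of -2.50 ± 0.20 (adjusted p = 9.81e-10). None of the 24 Cad sites at Abd-B carried H3K27ac, while 4 carried H3K4me1 and 11 did in replicate 1 alone. abd-A, the Hox gene between them, had ranks of 188, 171 and 177 and a difference of -1.75 ± 0.22 (adjusted p = 6.18e-07), and against Bcd alone it was -0.52 ± 0.28 (adjusted p = 0.123). Antp, active in the thorax, had ranks of 297, 349.5 and 357.5 and a difference of -0.98 ± 0.17 (adjusted p = 2.62e-05). The Antp window was long, with 37 Cad sites of which 7 were strong.

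Over the 35 posterior genes, Cad ranked better than Bcd at 12, worse at 17, and 6 were not called. Over all genes, 30.6% ranked better in Cad than in Bcd and 30.4% worse. Of 8 head genes, 5 ranked better in Cad than in the mean of the 5 factors and 3 worse, with a median of -0.63. That median lay further in favour of Cad than the hindgut median of -0.38, so such a shift was not confined to posterior lists. With a 20 kb window the head and hindgut medians were -0.28 and 0.11, and with ranking by fold -0.81 and 0.07. None of the 8 head genes ranked better in Cad than in Bcd, and 6 ranked worse. At ems, the head gap gene empty spiracles, the Cad ranks were 4302, 5086 and 4978 and the Bcd ranks 130, 130 and 119 (difference from Bcd 5.24 ± 0.18, adjusted p = 1.80e-15). At oc, the head gene orthodenticle, the Cad ranks were 304, 256 and 242 and the Bcd ranks 95, 75 and 81, and the difference from the mean of the 5 factors was -1.89 ± 0.22, but -0.10 and not called with a 20 kb window. Of 19 dorsoventral genes, 6 (31.6%) ranked better in Cad and 8 (42.1%) worse, with a median of 0.44. These shares lay near the 28.6% and 43.6% of all genes. With a 20 kb window 9 dorsoventral genes ranked better and 6 worse, with a median of -0.18. The difference most against Cad was at vnd, a neuroectodermal homeobox gene, with Cad ranks of 5589.5, 6536.5 and 5882.5 against mean ranks of 15 in Dl and 9 in Twi (4.90 ± 0.29, adjusted p = 9.13e-12). The difference most in favour of Cad was at pnr, the dorsal GATA factor Pannier, with Cad ranks of 193.5, 179.5 and 174.5 (-3.62 ± 0.18, adjusted p = 7.43e-13). pnr and tld, a dorsal protease gene, were the dorsoventral genes at which Cad was ahead of each other factor, and the tld difference was -3.20 ± 0.23 (adjusted p = 2.86e-10).

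A search over all 13922 genes for those called, with all 3 Cad libraries ahead of all 15 others and a mean Cad rank of 500 or better, found 201, and the 10 with the largest difference at separate sites were CG44838, prd, Pex7, CG44837 (at the byn site), CG32719, Nin, jumu, mid, CG4702 and geko. CG44838 on 3L had Cad gene ranks of 4.5, 3.5 and 4.5 and a best rank of 442.5 in the other 15 libraries (-8.00 ± 0.23). Its site at 3L:9461635-9462172 ranked 3, 2 and 4 in the Cad lists and carried both marks. Pex7, a peroxisomal import receptor gene, had Cad ranks of 26, 28 and 22 (-6.33 ± 0.25), from a site at 3L:8653487-8654060 with H3K4me1 and no H3K27ac. mid, the T-box gene midline, had Cad ranks of 105, 45 and 46 (-5.36 ± 0.21), and jumu, a forkhead-domain gene, ranks of 11, 10 and 11 (-5.67 ± 0.25). The differences at the remaining genes lay between -6.17 and -4.97. All 10 kept their call and sign in every other setting tried. They had been picked for the largest differences in these same values, so this is not separate support. The filter, an interval in at least 3 libraries, removed none of the 13922 genes, so the setting without it repeats the main fit. The search in the opposite direction asked for all 3 Cad libraries behind the other 15, and a mean rank of 500 or better over those 15. Those 15 libraries span 5 factors, so this rule is not the mirror of the first and the counts found cannot be compared. It met lola alone, a gene of BTB zinc-finger proteins, with Cad ranks of 1531.5, 1468.5 and 1551.5 and ranks of 75 to 1286 in the other 15 libraries (2.38 ± 0.24).

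Most Cad sites were shared. At least 1 other factor covered 74.0% of them in all its 3 libraries, Zld 56.5%, Twi 53.5%, Bcd 50.7%, Dl 34.6% and GAF 28.04%. Sharing was higher at strong sites, where Zld covered 97.1%, Twi 92.2%, Bcd 88.3%, Dl 86.5% and GAF 55.1%. Strong sites were also wider, and wide sites meet a stretch of another factor more easily. The part of width in this rise was not tested, and an overlap does not place both summits at the same point. Only 2600 sites (8.16%) met no interval in any of the 15 other libraries, and 2 of these were strong. All 15 other libraries had an interval at 4861 Cad sites, 504 of them strong. A stricter rule, chosen after the data had been seen, asked for the summits of all 3 libraries of a factor within 50 bp of the Cad summit, and 39.5% of Cad sites met it for at least 1 factor. By that rule Zld was close at 22.6%, Twi at 17.4%, Bcd at 16.0%, GAF at 6.91% and Dl at 6.73%.

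H3K27ac overlapped 28.1% of Cad sites (exact binomial 95% interval 27.6% to 28.6%, which covers counting error only) and H3K4me1 6.70% (18.6% in replicate 1 alone). Neither mark met 69.9% of the sites, and 1486 sites met both. The share with H3K27ac was 65.9% at strong sites, 53.5% at mean ranks above 1000 and up to 5000, 37.0% from there to 15000 and 14.8% beyond. For H3K4me1 the same steps gave 32.1%, 17.0%, 7.71% and 2.27%, and in replicate 1 alone 63.6%, 38.8%, 22.1% and 9.34%. Wide sites meet a mark more easily, and median widths fell over these steps from 600 through 423 and 291 to 181 bp. When the midpoint of the site had to lie inside the mark, H3K27ac met 31.7%, 32.2%, 24.4% and 10.6%. The first and second steps then stood level, and the decline was seen beyond rank 5000.

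**Figure D3:**
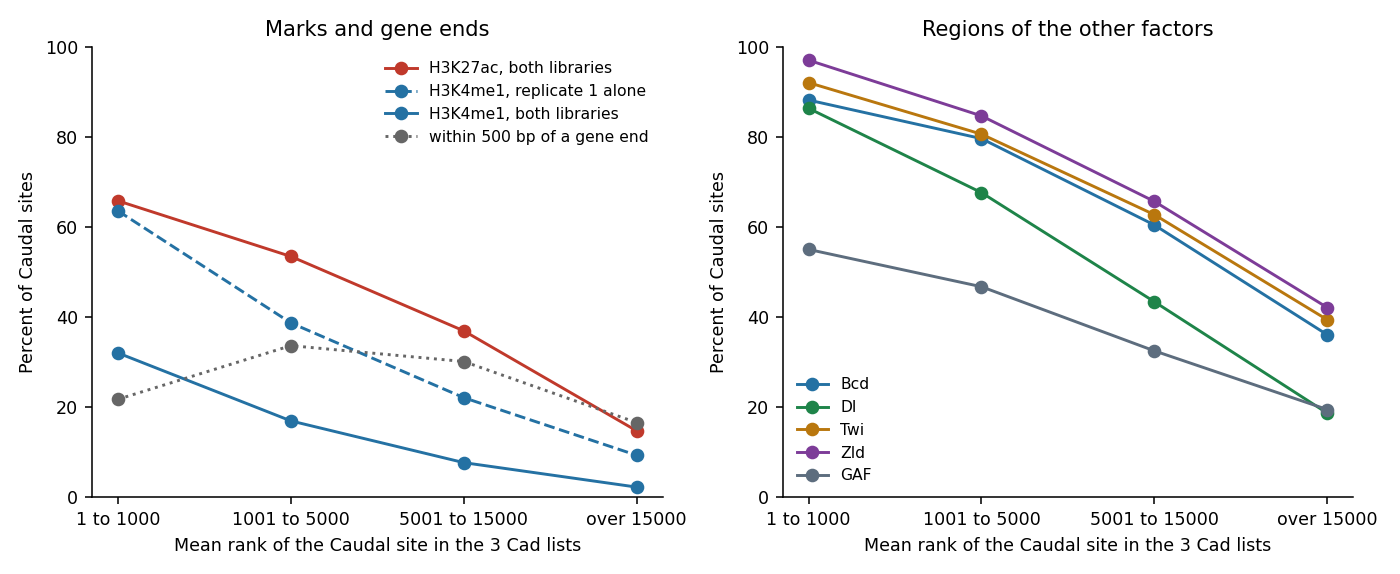
Percent of Cad sites, by their mean rank in the 3 Cad lists, that overlap H3K27ac or H3K4me1 or lie within 500 bp of a gene end (left), and that are covered in all 3 libraries of each other factor (right). Both marks and all 5 factors decline with rank, Zld from 97.1% to 42.2%, while the share near gene ends is highest, 33.7%, in the second rank step. Median site width falls over the same steps.

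Sites near gene ends differed from the rest in H3K27ac. Of 7364 Cad sites within 500 bp of either end of a gene (23.1% of all sites), 63.7% carried H3K27ac, against 17.3% of the 24508 distal sites. H3K4me1 met 8.15% and 6.26% of the same groups, and 22.7% and 17.4% in replicate 1 alone. Strong distal sites numbered 768, and 62.2% of them carried H3K27ac and 32.2% H3K4me1 (64.1% in replicate 1 alone). Cad sites under no other factor carried H3K27ac in 7.09%, those under 1 factor in 14.0%, under 2 in 22.8%, under 3 in 32.6%, under 4 in 49.1% and under all 5 in 57.0%. Median width rose along the same steps from 184.5 to 415 bp, and its part in the rise was not tested. Within strong sites alone the share was 38.5% of 13 sites under no factor, 73.8% under 4 and 69.0% under 5. Of the 358 Cad sites within 10 kb of the 35 posterior genes, 132 (36.9%) carried H3K27ac and 70 (19.6%) H3K4me1, or 56.4% in replicate 1 alone. Among the 75 strong sites at these genes, 56 carried H3K27ac (74.7%, against 65.9% of all strong sites) and 25 carried H3K4me1 (33.3%, and 88.0% in replicate 1 alone).

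Cad sites were also grouped by the distance between them. How many sites would be joined under random placement was not tested. With summits within 1 kb joined, 18819 sites (59.05%) stood alone and 13053 (40.95%) fell into 5693 clusters, of which 296 held 4 sites or more. The largest cluster, 8 sites at X:23510165-23514056, carried neither mark. A cluster of 7 sites at 3L:19895502-19899862, over Mi-2, which encodes a chromatin remodeller, and Su(Tpl), carried H3K27ac at all 7 and H3K4me1 at 4. Clusters of 6 sites overlapped Diap1, an inhibitor of apoptosis, brwl, kis, a chromatin remodeller of the CHD family, and Lim1, a homeobox gene, while others nearest to Map205, onecut and CG10651 overlapped no gene and carried no H3K27ac. The share of sites with H3K27ac was 21.3% for lone sites, 34.7% in pairs, 42.2% in clusters of 3, 49.4% in clusters of 4 to 5 and 49.3% in larger ones, with a median width of 220 to 241 bp in every class. H3K4me1 went from 5.71% to 21.7% over the same steps, and from 15.4% to 43.5% in replicate 1 alone. Within strong sites H3K27ac stood at 62.7% for 667 lone sites and 77.8% for 72 sites in clusters of 3. The denser clusters held few strong sites, 17 in all classes of 4 or more.

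**Figure D4:**
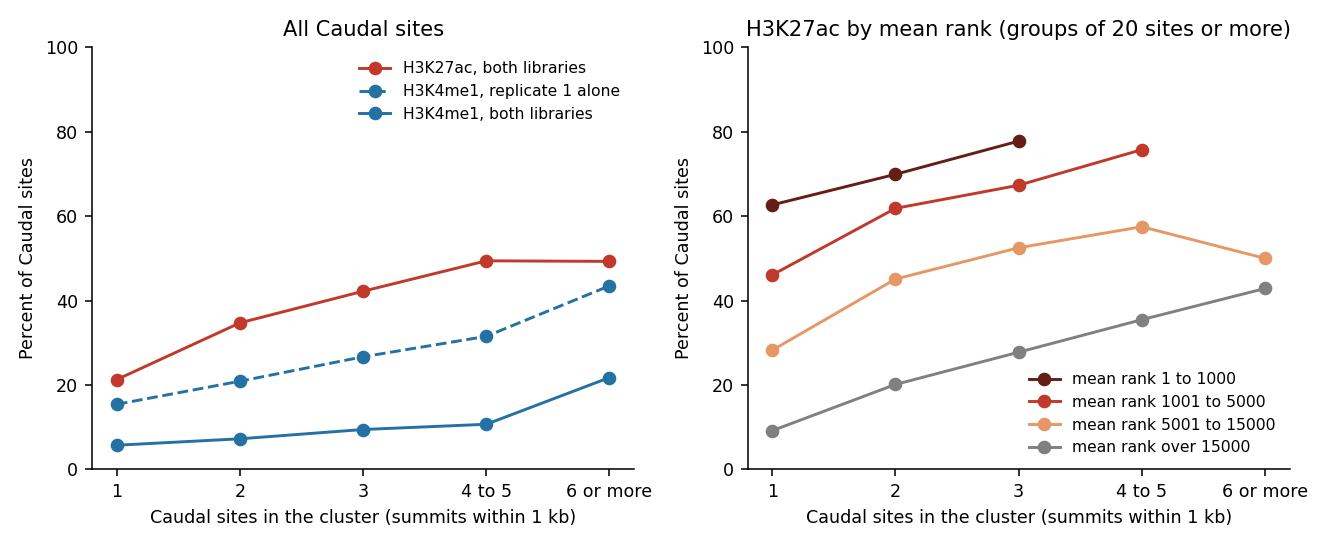
Percent of Cad sites with H3K27ac or H3K4me1 by the number of Cad sites in the cluster (left), and H3K27ac within 4 steps of mean rank (right, groups under 20 sites left out). H3K27ac goes from 21.3% of lone sites to 49.4% in clusters of 4 to 5, and in each rank step shown it is higher in clusters of 3 than at lone sites.

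The strong sites were also joined over 10 kb, a distance chosen after the data had been seen. Of the 982 strong sites, 623 (63.4%) stood alone and 21 clusters held 4 or more. The largest, at 3R:16798488-16852306, held 11 strong sites over abd-A and the neighbouring gene MSAmiP, 6 with H3K27ac and 3 with H3K4me1, all 11 with H3K4me1 in replicate 1 alone. Clusters of 7 and 5 lay over the replication-dependent histone genes on 2L, repeated copies among which reads cannot be assigned with certainty. Another 4 clusters, of 6, 5, 4 and 4 strong sites, lay on X far from genes, with ATbp the nearest, and 1 of 5 lay on X at 32190 bp from CG40813; none of these 5 carried H3K27ac. CadN, which encodes N-cadherin, had 6, SoxN, a neural Sox gene, had 5, and prd, ftz, cad, h, run, eve and hth, a homeobox cofactor of Hox proteins, had 4 each. A cluster of 4 at 3R:6744673-6762713 spanned zen, bcd and Ama, and further clusters of 4 lay near Sodh1, near CG15283 and over Ocho and its neighbours. H3K27ac overlapped every strong site of the ftz, cad, h, eve, hth and zen-bcd clusters, by at least 1 bp, and none of the prd cluster. Counted within 10 kb of a gene, 4 or more strong sites were found at 53 of 13922 genes (0.381%), with 12 at MSAmiP, the most of any gene, 9 at abd-A, 7 at Antp and 6 each at CadN and hth.

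None of 4 measures taken on the strongest summits of each library passed a test of Cad against the other factors. Of the 5000 strongest summits, 9.66%, 10.1% and 10.8% in the 3 Cad libraries had another within 1 kb, against 7.02% to 22.1% in the other 15. Of the 1000 strongest Cad summits, 29.9%, 29.0% and 30.1% lay inside H3K27ac, against 12.5% to 37.3%. H3K4me1 held 8.6%, 9.0% and 9.3% of them, against 2.3% to 19.0%, and within 500 bp of a gene end lay 21.0%, 22.3% and 21.4%, against 21.9% to 62.0%. The differences of means, Cad minus the other 15, were -2.88, 4.03, -2.20 and -12.3 percentage points, with exact two-sided permutation p over all choices of 3 of the 18 libraries, adjusted over the 4 measures, of 0.505, 0.505, 0.505 and 0.343. The smallest p these choices allow is 0.0012. The permutation treats libraries as exchangeable, although they come in groups of 3 per factor. Its p therefore does not measure the spread between factors. The direction of the first 3 turned in other settings, and with H3K4me1 replicate 1 alone the third was 5.95. Cad, Bcd and Twi had the lowest shares near gene ends, at means of 21.6%, 22.8% and 22.5%, and Zld the highest, 56.6% ± 7.53 (SD, n = 3).

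**Figure D5:**
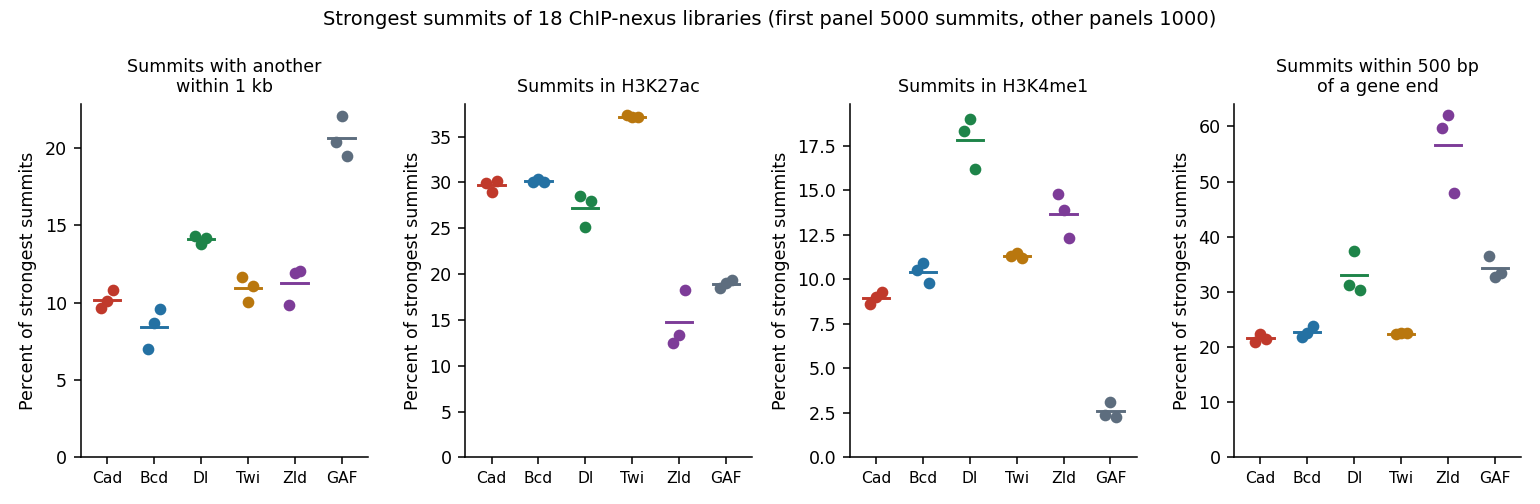
Percent of the strongest summits of each of the 18 ChIP-nexus libraries that have another summit within 1 kb, lie inside H3K27ac or H3K4me1 stretches covered in both libraries, or lie within 500 bp of a gene end, with points for libraries and lines for group means. The 3 Cad points lie within the range of the other 15 libraries in the first 3 panels, and at gene ends 2 of them (21.0% and 21.4%) lie below the lowest of the others, 21.9%.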

How the data were processed

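Peak lists of 18 ChIP-nexus and 4 ChIP-seq libraries were used, 1 list per library, and a whole cell extract sample was left out. Per the submitters' processing notes, cutadapt 2.5, Bowtie2 2.3.5.1, MACS2 2.2.7.1 and build dm6 were used. The authors deposited per interval a score, a fold enrichment (a linear ratio), the p-value and the q-value as −log10, and the summit offset. Values were used only to rank intervals within a list or, as an alternative, to keep those with a deposited −log10 q of 10 or more. Depth is unknown.

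Overlap meant at least 1 bp. Gene ends came from a RefSeq table of the same release, which gives no strand, so distances of up to 500 bp to either gene end replaced the planned ones to gene starts. All 62 list symbols were found, 2 through an older symbol. Log2 gene ranks were fitted with limma 3.58.1 (R 4.3.3, eBayes with trend) over all 18 libraries, with Benjamini-Hochberg adjustment over 13922 genes at 0.05. The fit was tested on simulated data. Other steps used Python 3.11.15, numpy 2.4.6, pandas 2.3.3 and scipy 1.17.1. The members and gene lists were chosen with earlier results of these data known. The named genes were the lists' members (of the head and dorsoventral lists, the extremes and the genes ahead of each factor), and up to 10 of the largest called differences each way, by the rules given above. The planned motif count was not run for want of a genome. Alternatives changed the window, ranking, scale, filter, threshold, overlap rule and replicate block, or left out libraries.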

Additional observations from a re-analysis of the deposited data

Results flagged for a closer look

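A further 5271 Cad sites lay on sequences other than the 6 arms, which none of the comparisons above used. They were singled out as a signal outside the main measurement, and between 10.6% and 11.98% of the intervals of the 3 Cad lists lay on such sequences, against 9.04% to 13.1% in the lists of the other factors.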

How the results depend on the processing

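Limits. Peak lists hold no read counts, so a site missing from a list is not shown to be unbound, and ranks compare genes within a library only. The 2 H3K4me1 lists share few bases, and Dl lists agree less among themselves than other lists. Gene windows of 10 kb assign a site to every gene in reach. H3K27ac and H3K4me1 shares depend on site width.

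Counts of genes ranked better in Cad, worse in Cad and better than in each factor stayed within 1.5 times of the reported ones under all settings, at 3739 to 4082, 5547 to 6288 and 1254 to 1412 on leaving out single libraries. With the replicate block they were 3982, 6083 and 1348, and all 51 named genes kept their call. The replicate number is not given as a shared batch, and same-numbered libraries deviated together with every correlation over 0.1 in 1 of 15 group pairs. That pair was Bcd and Cad (0.103, 0.136 and 0.12). The block was not used as the main design, although 13 of 18 libraries matched their own number best. For the 4 summit measures the permutation within replicate numbers gave adjusted p of 0.523, 0.523, 0.523 and 0.426.

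Of 31872 Cad sites, 17732 were left at a −log10 q of 10 or more, and the count was 33608 to 36959 on leaving out 1 Cad list. H3K27ac met 39.4% of sites at that threshold, against 28.1%, 23.1% of sites covered in at least 2 Cad lists and 18.2% by midpoint. It met 25.4% to 26.99% on leaving out 1 Cad list and 29.9% and 30.2% without H3K27ac replicate 1 and replicate 2. H3K4me1 met 10.3% at that threshold, 5.40% of sites in at least 2 lists, 3.71% by midpoint and 5.94% to 18.6% on leaving out 1 library, the highest without H3K4me1 replicate 2. Sites shared with another factor made up 75.4% at that threshold, 68.1% in at least 2 lists, 68.1% by the stricter overlap rule (at least 0.5 of the site), 39.5% by summits within 50 bp and 70.9% to 75.3% on leaving out 1 library.

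The difference in clustered summits turned to 1.66 percentage points over all deposited intervals and to 0.98 at a −log10 q of 10 or more, and was -3.32 to -2.24 on leaving out 1 library. That in H3K27ac turned to -0.48 at that threshold and to -0.54 within 500 bp of a mark, and was 3.09 to 5.46 on leaving out 1 library. That in H3K4me1 turned to 0.23 over all deposited intervals, and ranged from -3.98 to 5.95 on leaving out 1 library, the highest without H3K4me1 replicate 2. That near gene ends was -13.1 to -10.3. None passed its test in any setting, and the causes were not tested.

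Of 1275 values for the 51 named genes, 1239 kept sign and call, 18 lost the call, 5 gained it and 13 changed sign. These include the setting without a filter, which repeats the main fit because the filter removed no gene. The sign changed in a 5 kb window at slp2 (-0.068) and pdm2 (-0.28), in a 20 kb window at slp2 (-0.16), eve (0.61) and srp (0.46), with ranking by fold at slp2 (-0.51), wg (0.088), lin (0.044), eve (0.61) and h (0.28), with normal scores at slp2 (-0.11) and Kr (-0.056), and without Zld replicate 3 at slp2, which ranged from -0.019 to 0.16 on leaving out 1 library. The call was gained at srp without Zld replicate 3 (-0.39, adjusted p = 0.0378) and with normal scores, at slp1 in a 5 kb window and with normal scores, and at pdm2 with ranking by fold.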

Other observations

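Some of the best-ranked Cad sites were near the top for the other factors as well and carried neither mark. The site at X:22432940-22433268, in a stretch 10959 bp from the nearest protein-coding gene, CG14621, ranked 1 in all 3 Cad lists, and its mean site rank was 1.33 in Bcd, 1.33 in Dl, 4.67 in Zld, 33.0 in Twi and 1610 in GAF. A site inside Pzl, which encodes a Piezo-like channel, ranked 2, 5 and 2 in Cad and had mean ranks of 2.0 in Bcd, 1.67 in Dl, 5.0 in Zld, 44.0 in Twi and 1.33 in GAF. Both sites met all 15 other libraries. By contrast, the prd site that ranked 5, 3 and 5 in Cad had mean ranks of 35.7 in Bcd, 322 in Zld, 808 in Dl and 2594 in Twi.

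Strong Cad sites also gathered over the replication-dependent histone genes on 2L, with 7 at 2L:21453819-21485066 and 5 at 2L:21419541-21440677, of which 1 carried H3K27ac. Reads from such repeated gene copies cannot be assigned to one copy with certainty. Clusters of 4 to 6 strong sites at X:23205766-23217638, X:23239671-23271237, X:23280995-23292002 and X:23431058-23441497 lay 97435 to 322727 bp from the nearest protein-coding gene, ATbp, and carried no H3K27ac and no H3K4me1, replicate 1 alone included.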
